A study of Homo sapiens with 10 samples.

Results

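The 9 genes described here store, import, export or sense iron: FTH1, FTL, TFRC, SLC40A1, SLC11A2, IREB2, ACO1, NCOA4 and STEAP3. They were taken by name from the 59453 genes of the count tables, and all 9 passed the filter on low counts in every comparison. Together they held 0.138% to 0.196% of the counts of a library. RNA-seq had been performed on HAP1 cells, a near-haploid line from a human leukaemia, to ask how loss of DNA glycosylases that act on oxidised guanine changes transcription. WT cells were compared with MUTYH-/ cells (MUTYH knockout), OGG1-/ cells (OGG1 knockout) and cells with both changes (MUTYH-/ X OGG1-/, called DKO). Separate clones gave 2 libraries per genotype: 2 and 11 (WT), 7 and 8 (MUTYH knockout), 1 and 22 (OGG1 knockout), and 4 and 14 (DKO). A further 2 libraries came from WT clones 2 and 11 after 24 h with 100 µM H2O2, which none of the knockouts received. Every culture was grown in IMDM with 10% serum, which supplies transferrin-bound iron. In all samples the iron chelator deferoxamine and the antioxidant butylated hydroxytoluene were added while RNA was isolated and not during growth. Both DKO clones derived from a single OGG1 knockout clone, and P values measure the spread between the 2 clones of a genotype. A gene is said to pass the unadjusted threshold at an edgeR P of at most 0.05, and adjusted p values are Benjamini-Hochberg values over all genes tested.

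Iron enters most cells bound to transferrin through the transferrin receptor TFRC. In the endosome STEAP3 reduces the iron and SLC11A2 (DMT1) carries it into the cytosol. Surplus iron is stored in ferritin, a shell of heavy chains (FTH1, which oxidise iron) and light chains (FTL, which help to form the mineral core). NCOA4 carries ferritin to the lysosome, where the iron is released again, and SLC40A1 (ferroportin) exports iron from the cell. The iron regulatory proteins ACO1 (IRP1) and IREB2 (IRP2) bind hairpins in mRNA, the iron-responsive elements, when iron is scarce. Binding in a 5′ untranslated region blocks translation, and binding in the 3′ untranslated region of TFRC protects the mRNA from decay. RNA-seq therefore reads the TFRC side of this control in part, but not the translational side of ferritin. In bulk RNA, fewer expressing cells and less RNA per cell cannot be told apart.

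The hairpins are shown because they divide the 9 transcripts into those that the regulatory proteins can hold through a classical element and those without such a match. The search read the spliced transcripts in the sense direction for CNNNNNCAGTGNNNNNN, in which the 5 bases before and after the 6-base loop had to pair, G with U included. Of 19061 MANE Select transcripts, 256 (1.34%) held a match, among them 4 of the 9 genes. Sequences are written 5′ to 3′ as DNA from GENCODE v44 transcripts and equal the GRCh38 genome on the strand of the gene. Capitals mark the loop.
FTH1, 5′ untranslated region, chr11:61967574-61967603, minus strand: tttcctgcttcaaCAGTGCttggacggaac
FTL, 5′ untranslated region, chr19:48965334-48965363, plus strand: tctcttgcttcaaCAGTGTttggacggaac
SLC40A1, 5′ untranslated region, chr2:189580661-189580690, minus strand: ccaacttcagctaCAGTGTtagctaagttt
TFRC, 3′ untranslated region, chr3:196050979-196051008, minus strand: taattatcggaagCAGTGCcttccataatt
TFRC, 3′ untranslated region, chr3:196050575-196050604, minus strand: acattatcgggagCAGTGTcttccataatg
TFRC, 3′ untranslated region, chr3:196050510-196050539, minus strand: tctgtatcggagaCAGTGAtctccatatgt
TFRC, 3′ untranslated region, chr3:196050463-196050492, minus strand: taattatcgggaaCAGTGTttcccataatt

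The genes themselves span chr11:61959718-61967634 (FTH1), chr19:48965309-48966879 (FTL), chr2:189560590-189583758 (SLC40A1) and chr3:196012511-196082153 (TFRC) on GRCh38. The ferritin elements lay close to the start of the mRNA and the 4 TFRC elements lay past the stop codon, each within 1 exon. In the MANE Select transcripts the element started at base 32 of 1203 in FTH1, base 26 of 871 in FTL and base 97 of 3330 in SLC40A1. The element was in 7 of 8 coding transcripts of FTH1 and in 1 of 5 of SLC40A1. Those of TFRC started between bases 3288 and 3804 of 5012. A match in a 5′ untranslated region was found in 19 transcripts (0.0997%) and a match in a 3′ untranslated region in 121 (0.635%). SLC11A2, STEAP3, NCOA4, ACO1 and IREB2 had no match, which says only that these letters with full pairing are not in the transcript. A hairpin with imperfect pairing would be missed. No match therefore does not show that a transcript lacks an iron-responsive element, and transcripts with a match can hold further elements.

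**Figure D1:**
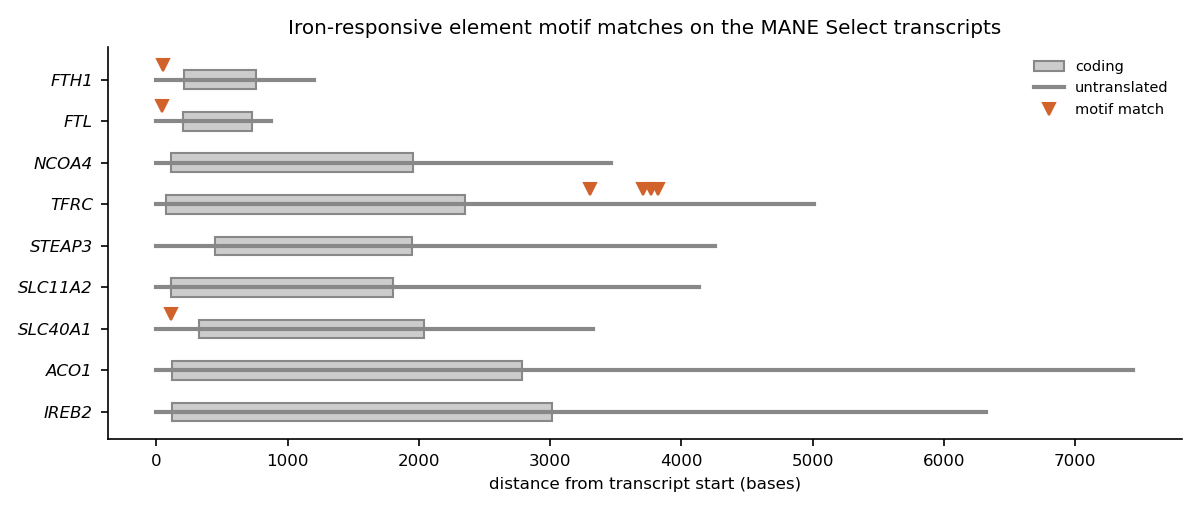
Positions of the matches on the 9 MANE Select transcripts. The x axis is the distance from the transcript start in bases, boxes are coding sequence, lines are untranslated sequence and triangles are matches. FTH1, FTL and SLC40A1 each have 1 match before the coding sequence and TFRC has 4 after it.

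The levels of the 9 transcripts spanned a wide range. Counts were normalised to library size with trimmed mean of M values (TMM) factors and are given as CPM, in which 1 count was worth 0.0441 to 0.0462 CPM. Divided by the length of all exons of the gene in kilobases, the mean over 10 libraries was 429 CPM per kb for FTL and 88.3 CPM per kb for FTH1. NCOA4 (33.9 CPM per kb), TFRC (28.0 CPM per kb) and IREB2 (27.3 CPM per kb) followed with ranges over libraries that overlapped. ACO1 at 11.9 CPM per kb, STEAP3 at 9.4 CPM per kb and SLC11A2 at 7.26 CPM per kb overlapped their neighbours likewise. The exporter SLC40A1 was the lowest, at 1.02 CPM per kb, with 42 to 150 counts per library. With the longest transcript as the length, 3 of 9 genes kept their rank, and TFRC took the third place at 70.9 CPM per kb.

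Markers of cells specialised in iron traffic were low or absent. Of 9 erythroid marker genes, 6 stayed below 1 CPM in every library, with 2 of them at 0, and the list summed to 8.61 to 18.9 CPM. Of 6 genes of hepatocyte or macrophage iron handling, 5 stayed below 1 CPM and the sum was 0.839 to 1.93 CPM. The 7 haematopoietic markers summed to 8.01 to 32.7 CPM, with 4 below 1 CPM everywhere. The 5 markers of the adherent HAP1 state summed to 369 to 747 CPM, with 1 (COL4A1) below 1 CPM everywhere and CD44 between 0.444 and 22.2 CPM.

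As a check of the labels, WT libraries held 275 and 295 counts of OGG1, against 27 in OGG1 knockout clone 1. The library labelled OGG1 knockout clone 22 had 254 counts, and DKO had 215 and 223. MUTYH had 89 and 105 counts in WT, 83 and 101 in the MUTYH knockout, and 50 and 106 in DKO. A small deletion need not lower a transcript, so these counts do not test the knockouts, apart from OGG1 in clone 1. Total counts per library were 22225091 to 22674964. The 8 untreated libraries also fell into sets that crossed the genotypes and that no label explains. Clones 2 (WT), 8 (MUTYH knockout), 22 (OGG1 knockout) and 14 (DKO) formed side A, and the other clone of each genotype formed side B. Mitochondrial genes took 3.75% to 5.02% of the counts on side A and 5.14% to 7.46% on side B. The sides were found in these same data, so a fit with side as a block removes spread already seen in them. Its smaller SE and its calls are not independent of the data tested and are given as a description.

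Ferritin light chain was the gene of the set that differed most clearly between WT and the knockouts. In WT, FTL stood at 179 CPM in clone 2 and at 279 CPM in clone 11. In the MUTYH knockout it had 501 CPM in clone 7 and 361 CPM in clone 8, in the OGG1 knockout 397 CPM in clone 1 and 424 CPM in clone 22, and in DKO 401 CPM in clone 4 and 341 CPM in clone 14. All 6 knockout libraries lay above both WT libraries, and the 3 knockouts overlapped each other. Taken singly, the MUTYH knockout, OGG1 knockout and DKO did not overlap WT, in either direction, for 21.5%, 25.2% and 25.7% of all genes. The share of all genes with this separation in all 3 knockouts was not computed. FTL encodes the ferritin chain that promotes mineral formation.

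The 3 comparisons of FTL share the same 2 WT libraries and are given side by side. The log2 fold change against WT was 0.91 ± 0.26 (SE) in the MUTYH knockout, with a 95% interval of 0.30 to 1.53. It was 0.84 ± 0.26 in the OGG1 knockout (0.23 to 1.46) and 0.70 ± 0.26 in DKO (0.09 to 1.31). FTL thus passed the unadjusted threshold in each comparison, but stayed below the log2 change of 1 that the study's criterion for a differentially expressed gene (DEG) also demands. No comparison passed the adjustment over 17881 genes, with an edgeR adjusted p of 1, 0.999 and 1, and of 0.434 at the least under any alternative. With the side of the library as a block the changes were 0.92 ± 0.17, 0.88 ± 0.17 and 0.72 ± 0.17, and the edgeR adjusted p was 0.96, 0.616 and 0.541. The result leaned on WT clone 2, the library with the least FTL. Without it the log2 fold changes were 0.62, 0.55 and 0.41, and none passed the unadjusted threshold. Without WT clone 11 they were 1.27, 1.203 and 1.06, and FTL then met the DEG criterion in all 3. The values without MUTYH knockout clone 7 (0.65) or without DKO clone 4 (0.57) missed the unadjusted threshold too.

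FTL in cells lacking both enzymes did not reach the sum of the separate differences. The interaction, the step from OGG1 knockout to DKO minus the step from WT to MUTYH knockout, was -1.06 ± 0.37 on the log2 scale (SE, 95% interval -1.92 to -0.19, edgeR adjusted p = 1). It met the DEG criterion, as 2% of all genes did, and it was -1.08 ± 0.24 with side as a block, where 3.17% of all genes met the criterion. It missed the criterion without clone 2 of WT (-0.77), 7 of the MUTYH knockout (-0.79), 22 of the OGG1 knockout (-1.02) or 14 of DKO (-0.95). All of these stayed negative. From OGG1 knockout to DKO, FTL showed no rise, with a log2 fold change of -0.14 ± 0.26 (SE). Without WT clone 11, 2 members met the criterion, FTL and SLC40A1 (-1.67).

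The heavy chain followed the light chain less closely. FTH1 had 137 and 147 CPM in WT clones 11 and 2, 170 and 215 CPM in MUTYH knockout clones 7 and 8, 138 and 199 CPM in OGG1 knockout clones 1 and 22, and 157 and 179 CPM in DKO clones 4 and 14. MUTYH knockout and DKO libraries lay above both WT libraries, and the OGG1 knockout overlapped WT. The log2 fold change was 0.43 ± 0.21 (SE) in the MUTYH knockout, 0.24 ± 0.21 in the OGG1 knockout and 0.24 ± 0.21 in DKO, and none passed the unadjusted threshold. With side as a block the first was 0.42 ± 0.12 and passed it, with an edgeR adjusted p of 0.997. FTH1 encodes the chain with ferroxidase activity. The ratio of FTL to FTH1 in CPM was 1.22 and 2.04 in WT clones 2 and 11, 1.68 to 2.95 in the 4 libraries of the single knockouts, and 1.91 and 2.55 in DKO clones 14 and 4. These ranges overlapped when the sides were pooled. Within each side WT had the lowest ratio, 1.22 against 1.68, 1.91 and 2.13 on side A and 2.04 against 2.55, 2.88 and 2.95 on side B. Each of these is 1 library, the sides were found in the same data, and the ratio reuses the FTL values above. No test was made of the ratio.

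**Figure D2:**
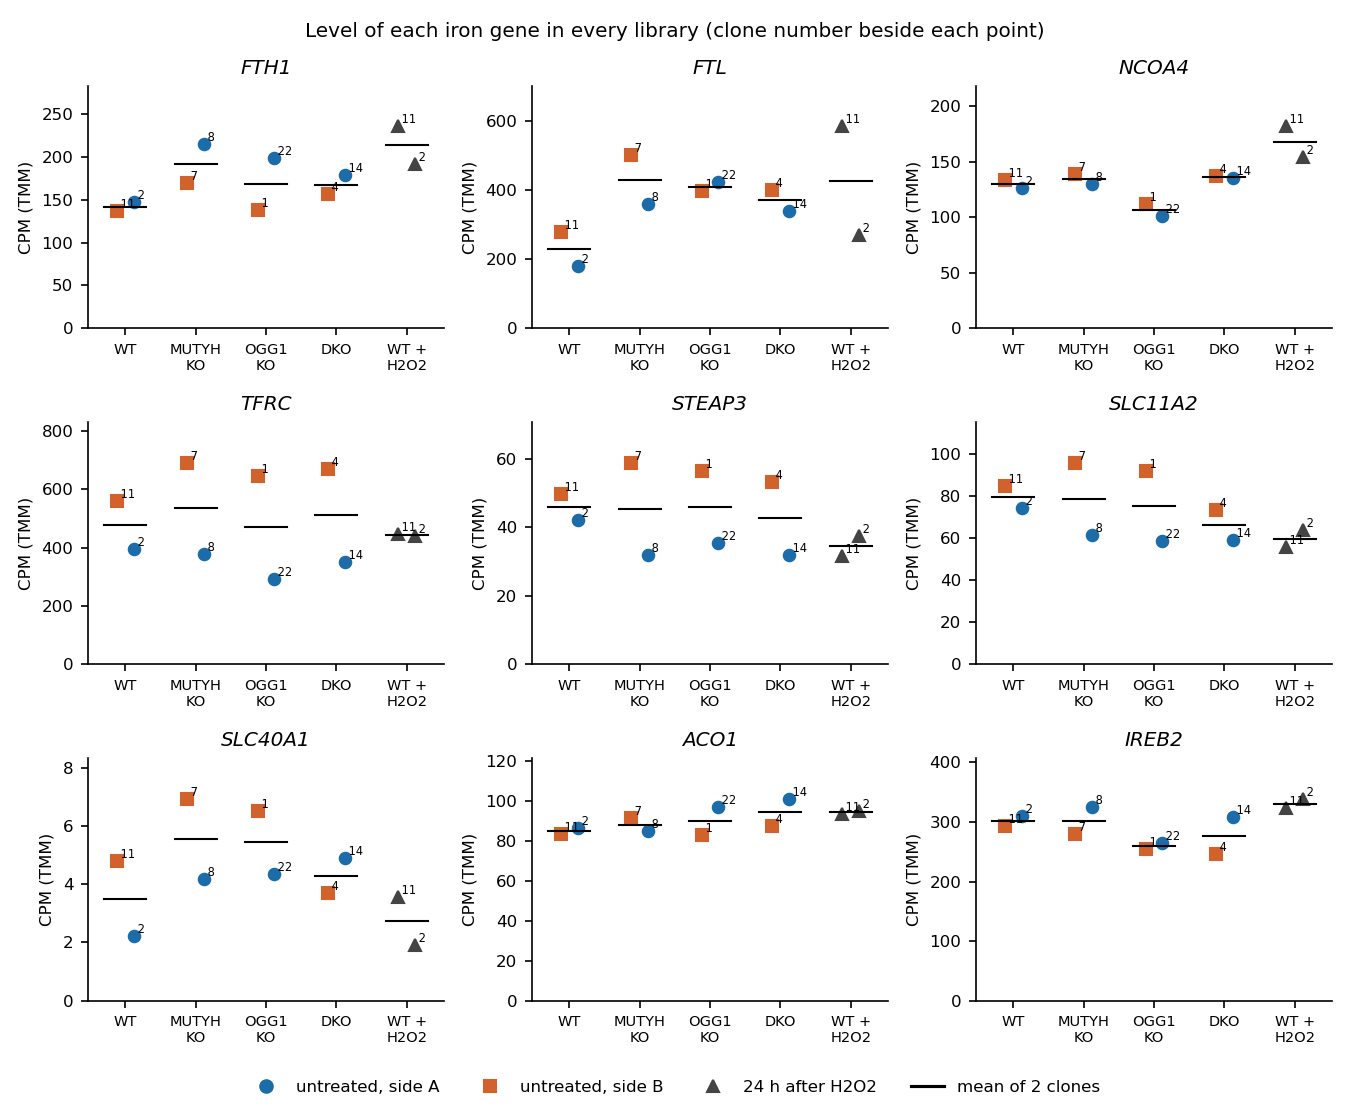
CPM of the 9 genes in all 10 libraries. The y axis starts at 0, circles and squares are untreated clones of sides A and B, triangles are WT clones 24 h after H2O2, numbers are clones and bars are the mean of 2 clones. All 6 knockout libraries lie above both untreated WT libraries for FTL, and TFRC and STEAP3 separate by side.

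FTH1 and FTL have processed pseudogenes whose reads can be confused with theirs, and how reads with several alignments were treated is not given in the sources used here. The rows named as FTH1 pseudogenes summed to 72 to 149 counts per library, against 3046 to 5350 counts for FTH1. Those named as FTL pseudogenes summed to 6 to 16 counts, against 4023 to 13275 for FTL. Adding them changed the FTL value in the MUTYH knockout from 0.914 to 0.912. FTH1 also overlaps BEST1 on the opposite strand over 63.2% of its exon length in GENCODE v44, and the strand setting of the counting is not given either. BEST1, a chloride channel gene, had 8 to 51 counts in the untreated libraries. Reads from the shared stretch may have been left uncounted, so the level of FTH1 relative to FTL is uncertain. STEAP3 overlaps STEAP3-AS1 in the same way over 11% of its exon length, and that antisense gene had 2 to 9 counts per library.

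Against WT, the other 8 genes gave no call in any knockout at the unadjusted threshold. With edgeR, 1 of the 9 genes (FTL) passed in each of the MUTYH knockout, OGG1 knockout and DKO comparisons, against 1.72%, 2.74% and 2.94% of all genes tested. With side as a block FTH1 passed too in the MUTYH knockout (all genes, 4.46%) and NCOA4 in the OGG1 knockout (7.18%), and FTL alone passed in DKO (7.32%). Passes with this block rest on sides found in the same data and are a description. No member met the DEG criterion with edgeR or DESeq2 in any of the 3, against 1.19%, 1.67% and 1.77% of all genes with edgeR. DESeq2 also passed 1 of 9 at the unadjusted threshold in each. The share of all genes passing with DESeq2 was not computed, so its counts cannot be set against the edgeR shares. Libraries did not overlap between knockout and WT for 2 members in the MUTYH knockout (all genes, 21.5%), 3 in the OGG1 knockout (25.2%) and 5 in DKO (25.7%). Besides ferritin these were IREB2 and NCOA4, lower in the OGG1 knockout, and ACO1 and NCOA4, higher, and SLC11A2, lower, in DKO. Over the 9 genes the median log2 fold change was 0.05, 0.00 and 0.10, against 0.01, 0.01 and 0.00 over all genes. DKO against the MUTYH knockout, OGG1-lacking against OGG1-proficient clones and MUTYH-lacking against MUTYH-proficient clones each passed 0 of 9 at the unadjusted threshold with edgeR and with DESeq2, against 3.43%, 3.79% and 1.62% of all genes with edgeR. With side as a block FTL and IREB2 passed in the second of these (all genes, 9.41%), and FTH1, FTL and NCOA4 in the third (5%).

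NCOA4, the receptor that delivers ferritin for breakdown, was lowest in the OGG1 knockout. It had 134 and 126 CPM in WT clones 11 and 2, 139 and 130 CPM in MUTYH knockout clones 7 and 8, 112 and 101 CPM in OGG1 knockout clones 1 and 22, and 137 and 135 CPM in DKO clones 4 and 14. Both OGG1 knockout libraries lay below the other 6 untreated libraries. The log2 fold change against WT was -0.29 ± 0.14 (SE), which missed the unadjusted threshold, and -0.29 ± 0.08 with side as a block, which passed it (edgeR adjusted p = 0.675). From OGG1 knockout to DKO it was 0.36 ± 0.14 (SE, edgeR adjusted p = 1) and passed the unadjusted threshold as 1 of 9 members, against 2.62% of all genes. That call was lost without the filter on low counts, with just these 4 libraries in the fit, and without OGG1 knockout clone 22 (0.28), DKO clone 4 (0.34) or DKO clone 14 (0.36). The DKO clones, which lack both OGG1 and MUTYH, did not have less NCOA4 than WT, and the cause of the difference was not tested.

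The sensors of the pathway varied least. IREB2 ranged from 246 CPM in DKO clone 4 to 339 CPM in treated WT clone 2, which is 1.38 times. ACO1 ranged from 82.9 CPM in OGG1 knockout clone 1 to 101 CPM in DKO clone 14, or 1.22 times. By contrast the highest library exceeded the lowest 3.27 times for FTL, 3.63 times for SLC40A1 and 2.36 times for TFRC. The 95% interval of the ACO1 log2 fold change was -0.29 to 0.39 in the MUTYH knockout, -0.26 to 0.42 in the OGG1 knockout and -0.19 to 0.49 in DKO. For IREB2 the intervals were -0.38 to 0.38, -0.60 to 0.16 and -0.50 to 0.26. IREB2 and ACO1 are also controlled as proteins, by turnover and by an iron-sulfur cluster, which RNA-seq does not measure.

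**Figure D3:**
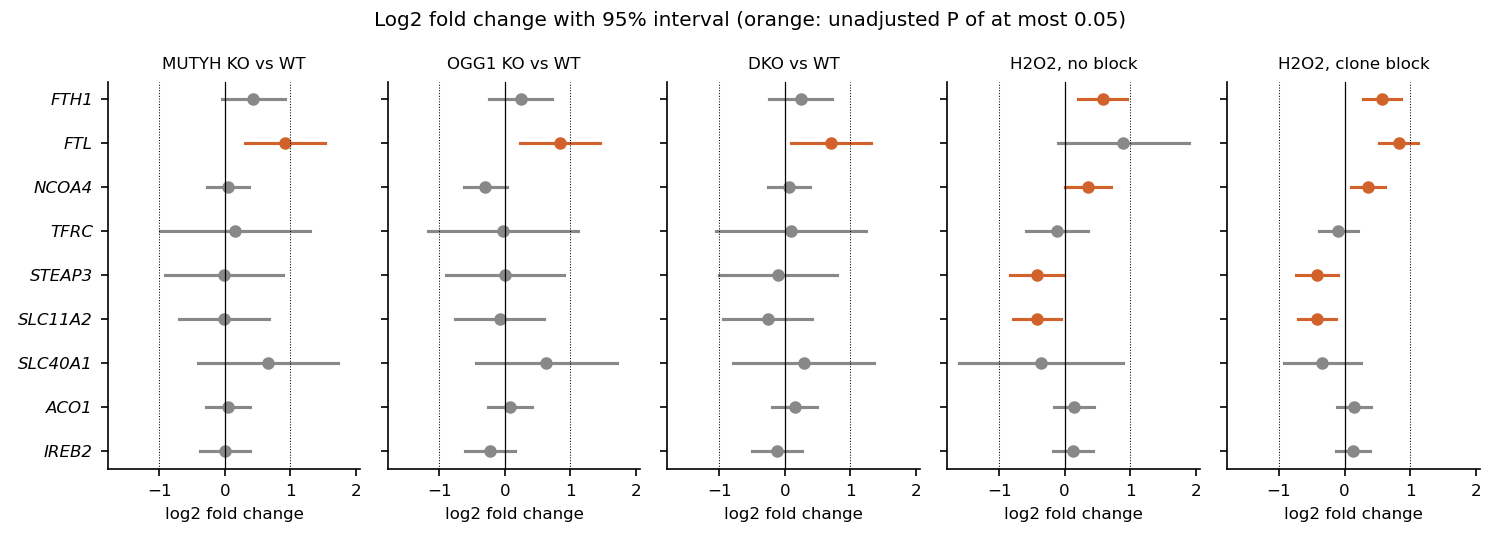
Log2 fold change (x axis) of the 9 genes with 95% intervals from edgeR, in the 3 knockouts against WT and in treated against untreated WT without and with clone as a block. Orange marks an unadjusted P of at most 0.05 and dotted lines mark a log2 change of 1. FTL is orange in all 3 knockouts, and after H2O2 FTL turns orange with the block.

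TFRC, the transferrin receptor, was higher in the side B clone of every untreated genotype and overlapped between WT and each knockout. It had 561 and 396 CPM in WT clones 11 and 2, 691 and 378 CPM in MUTYH knockout clones 7 and 8, 645 and 293 CPM in OGG1 knockout clones 1 and 22, and 669 and 352 CPM in DKO clones 4 and 14. The lowest side B library, WT clone 11, lay above the highest side A library, WT clone 2. The share of all genes whose sides did not overlap in this way was not computed. Within a genotype the side B clone had 1.42, 1.83, 2.2 and 1.9 times the TFRC of its partner in WT, MUTYH knockout, OGG1 knockout and DKO. Against WT the log2 fold changes of TFRC were 0.16, -0.03 and 0.10 in the 3 knockouts, each with an SE of 0.49. The 95% intervals reached from -0.99 to 1.30, from -1.17 to 1.12 and from -1.04 to 1.25, so changes as large as the DEG criterion lay within them.

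STEAP3 separated in the same way. It had 49.8, 58.9, 56.4 and 53.3 CPM in the side B clones of WT, MUTYH knockout, OGG1 knockout and DKO, and 42.1, 31.8, 35.4 and 32.0 CPM in their side A partners. SLC11A2 had 84.5, 95.8, 91.7 and 73.2 CPM in the side B clones and 74.2, 61.4, 58.5 and 58.9 CPM in the side A clones. For SLC11A2 the sides touched, since DKO clone 4 lay just below WT clone 2, but the side B clone was higher within every genotype. TFRC, STEAP3 and SLC11A2 are the receptor, the reductase and the carrier of a single uptake route. FTH1 ran the other way, with 0.694 to 0.937 times as much in the side B clone. NCOA4 was 1.01 to 1.11 times as high in the side B clone. SLC40A1 was higher in the side B clone of 3 genotypes, at 1.5 to 2.16 times, and lower in DKO, at 0.75 times. How many of all genes differed between the sides in the same direction in every genotype was not computed. The pattern is thus not shown to be particular to uptake genes. The sides were found in the same data and carry no label, so these values are a description without a test. The higher mitochondrial share of side B moved with them, and its part was not tested.

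**Figure D4:**
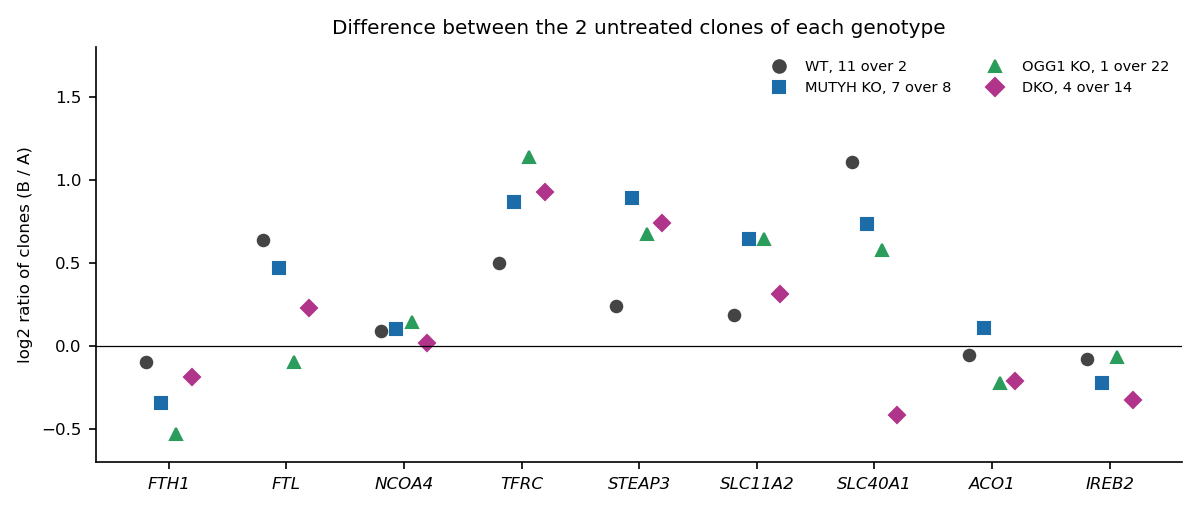
Log2 ratio of the side B to the side A clone (y axis) within each of the 4 untreated genotypes, for each of the 9 genes. Symbols are genotypes. TFRC, STEAP3, SLC11A2 and, by less, NCOA4 lie above 0 in all 4 genotypes, and FTH1 and IREB2 lie below 0 in all 4.

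The treated libraries address the response of WT cells at 24 h after H2O2. Both ferritin chains rose in both clones when each treated clone was set against its own untreated culture. FTL went from 179 to 269 CPM in clone 2 and from 279 to 585 CPM in clone 11, which is 1.5 and 2.1 times. FTH1 went from 147 to 192 CPM in clone 2 and from 137 to 236 CPM in clone 11, which is 1.31 and 1.71 times. Treated clone 2 stayed below untreated clone 11 for FTL, so the groups overlapped for FTL and did not overlap for FTH1. Ferritin sequesters iron that could otherwise react with peroxide.

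Since the same clones were treated and untreated, the test with clone as a block is given beside the unblocked test. For FTL the log2 fold change was 0.89 ± 0.40 without the block (SE, edgeR adjusted p = 0.638) and 0.82 ± 0.14 with it (edgeR adjusted p = 0.0115). For FTH1 it was 0.58 ± 0.15 without the block (SE, edgeR adjusted p = 0.638) and 0.58 ± 0.13 with it (edgeR adjusted p = 0.0412). DESeq2 with the block gave an adjusted p of 0.000169 for FTL and 0.0316 for FTH1. Over all alternatives the adjusted p reached 0.966 for FTL and 0.92 for FTH1. With the block, 2 of 9 members passed the adjustment, both higher, against 2.57% of all genes, and 1 residual degree of freedom was left. Without it, 0 of 16997 genes passed with edgeR. The size for FTL depended on the clone. Without the block it was 0.23 without treated clone 11, 1.33 without treated clone 2, 1.25 without untreated clone 11 and 0.60 without untreated clone 2. FTH1 was 0.43 without treated clone 11, which missed the unadjusted threshold, and 0.54 to 0.71 without any other library, which passed it.

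BEST1, which shares exon sequence with FTH1 on the opposite strand, moved as well. Its counts were 8 and 42 in untreated clones 11 and 2, against 116 and 145 after treatment. FTH1 went from 3100 to 5350 counts in clone 11 and from 3305 to 4222 in clone 2. The part of reads shared between BEST1 and FTH1 was not tested. With pseudogene rows added, the FTH1 value was 0.582 against 0.583.

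**Figure D5:**
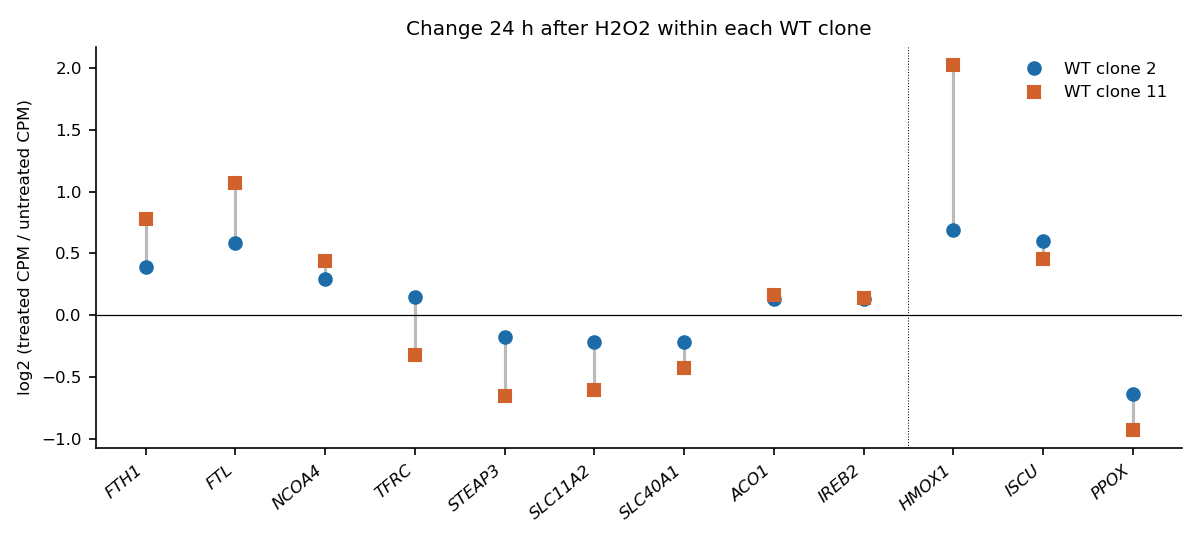
Log2 ratio of treated to untreated CPM (y axis) within WT clone 2 (circles) and WT clone 11 (squares) for the 9 genes and, right of the dotted line, HMOX1, ISCU and PPOX. FTL, FTH1 and NCOA4 lie above 0 in both clones, SLC11A2, STEAP3 and SLC40A1 below 0 in both, and TFRC lies on opposite sides.

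NCOA4 was higher after H2O2 and STEAP3 and SLC11A2 were lower. NCOA4 had 126 and 134 CPM in untreated clones 2 and 11 and 154 and 182 CPM in the treated ones (log2 fold change 0.36 ± 0.14, SE). SLC11A2 had 74.2 and 84.5 CPM untreated and 63.7 and 55.7 CPM treated (log2 fold change -0.42 ± 0.15). STEAP3 had 42.1 and 49.8 CPM untreated and 37.4 and 31.6 CPM treated (log2 fold change -0.42 ± 0.17). For these 3 genes treated and untreated libraries did not overlap, and each passed the unadjusted threshold with an edgeR adjusted p of 0.638. With the block the edgeR adjusted p was 0.139, 0.119 and 0.139, so none passed the adjustment. STEAP3 missed the unadjusted threshold with DESeq2. NCOA4 missed it when any 1 of the 4 libraries was left out (0.24 to 0.46), and SLC11A2 and STEAP3 did so without untreated clone 11, treated clone 11 or treated clone 2.

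The remaining uptake and export genes gave no call. TFRC went from 396 to 438 CPM in clone 2 and from 561 to 448 CPM in clone 11, so the clones moved in opposite directions. The treated libraries lay between the untreated ones (log2 fold change -0.12, 95% interval -0.60 to 0.36). SLC40A1 was 0.861 and 0.745 times the untreated level in clones 2 and 11, with a 95% interval of the log2 fold change of -1.61 to 0.89. ACO1 and IREB2 were 1.09 to 1.12 times as high in both clones, and neither passed the unadjusted threshold. The treated libraries had a mitochondrial share of 3.0% and 3.38%, below that of their untreated cultures at 5.14% and 5.02%, and its part was not tested. Untreated side A clones also had a lower mitochondrial share, less STEAP3 (31.8 to 42.1 CPM) and SLC11A2 (58.5 to 74.2 CPM), and more FTH1 than their side B partners. NCOA4 went the other way, as did FTL in all genotypes but the OGG1 knockout. No side was assigned to treated libraries, and the part of the sides in these changes was not tested.

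In all, 4 of 9 members passed the unadjusted threshold after H2O2, against 7.63% of all genes, and 5 of 9 did with clone as a block, against 20.1%. The groups did not overlap for 6 of 9 members, against 41.4% of all genes. No member met the DEG criterion, which 1.75% of all genes met. DESeq2 passed 3 of 9 at the unadjusted threshold with 0 DEGs, and its share over all genes was not computed. The median log2 fold change of the 9 was 0.13, against 0.00 over all genes.

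The wider set of 76 iron genes, in 8 lists that hold the 9 members too, gives the rest of iron metabolism. In the MUTYH knockout 1 of 69 tested genes passed the unadjusted threshold, in the OGG1 knockout 3 and in DKO 3, against 1.72%, 2.74% and 2.94% of all genes. Beside FTL these were TF and ABCG2 in the OGG1 knockout and PPOX and HMOX1 in DKO, and none passed the adjustment in edgeR. The iron-sulfur assembly lists, of 17 mitochondrial and 9 cytosolic genes tested, had no call in any knockout without the block, nor had the sensing list of 5 genes. With side as a block these lists gave SLC25A37 (log2 fold change -0.23), lower in the MUTYH knockout, ISCA1 (-0.26) and CUL1 (-0.24) of the sensing list, lower in the OGG1 knockout, and CIAO3 (-0.34), lower in DKO. Of the 69 genes, the MUTYH knockout then passed 3, the OGG1 knockout 7 and DKO 5, against 4.46%, 7.18% and 7.32% of all genes, and none passed the adjustment. TF encodes transferrin, the plasma iron carrier. Its counts were 4 and 7 in WT clones 2 and 11, and 12 and 17 in OGG1 knockout clones 1 and 22 (log2 fold change 1.39 ± 0.56, SE, edgeR adjusted p = 0.999). ABCG2, a porphyrin and drug exporter, was represented by 33 and 8 counts in the WT libraries (clones 2 and 11) and 3 and 2 in OGG1 knockout clones 22 and 1 (-2.96 ± 1.04, edgeR adjusted p = 0.999). Both rest on counts near the detection limit.

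HMOX1, PPOX and ISCU moved after H2O2 together with ferritin. HMOX1 encodes heme oxygenase, which frees iron from heme. It rose from 9.59 to 15.4 CPM in clone 2 and from 9.0 to 36.6 CPM in clone 11, with a log2 fold change of 1.48 ± 0.42 (SE, edgeR adjusted p = 0.638) and 1.36 ± 0.25 with the block (edgeR adjusted p = 0.0175). HMOX1 was the single DEG among the 68 tested genes of the wider set. PPOX, an enzyme of heme synthesis, fell from 26.6 to 17.2 CPM in clone 2 and from 30 to 15.8 CPM in clone 11 (-0.78 ± 0.16 with the block, adjusted p = 0.022 in edgeR). ISCU, the scaffold on which iron-sulfur clusters are built, rose from 52.7 to 79.7 CPM in clone 2 and from 45.4 to 62.2 CPM in clone 11 (0.52 ± 0.12 with the block, adjusted p = 0.0488 in edgeR). With the block 22 of the 68 genes passed the unadjusted threshold, 14 higher and 8 lower, and 5 passed the adjustment: FTL, FTH1, HMOX1 and ISCU, higher, and PPOX, lower. Of all genes 20.1% passed the unadjusted threshold with this block and 2.57% the adjustment. In the list of storage, chaperone and turnover genes 3 of 5 passed the unadjusted threshold, all higher, and in the uptake list 3 of 9 passed, all lower (SLC11A2, STEAP2 and STEAP3), against the same 20.1%.

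PPOX and HMOX1 also passed the unadjusted threshold in DKO, which was compared with the same untreated WT libraries. HMOX1 had 13.5 and 13.9 CPM in DKO clones 4 and 14 against 9.0 and 9.59 CPM in WT (log2 fold change 0.56 ± 0.23, SE, edgeR adjusted p = 1). PPOX had 21.0 and 19.8 CPM in DKO clones 4 and 14 against 30 and 26.6 CPM in WT (-0.47 ± 0.17, edgeR adjusted p = 1). Neither gene overlapped between DKO and WT, as was so for 25.7% of all genes, and 2.94% of all genes passed the unadjusted threshold. Both genes were picked here after their values were seen.

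The antioxidant response element, the DNA site through which oxidative stress raises ferritin and HMOX1, was searched for as its core TGACNNNGC on both strands of 300-base RefSeq promoters (GRCh38.p14) around the gene start. Of 35116 promoters 13.3% held it, and of the 8 members with a promoter in the table NCOA4 held it. FTH1 was the member not searched, and no result is given for HMOX1. The hypoxia response core ACGTG was in 21.4% of promoters and in those of FTL and TFRC. No match says only that these letters are not in this window, and sites farther from the gene start were not searched.

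For each member the gene with the most similar profile was sought among 14780 genes by Pearson r of log2 CPM over the 10 libraries, which share clones. For STEAP3 this was DPP7 (r = 0.991), for TFRC ALG1 (r = 0.988), for SLC11A2 PLEC (r = 0.979), for IREB2 FUBP3 (r = 0.979) and for SLC40A1 RET (r = 0.975). For FTH1 it was NANS (r = 0.958), for NCOA4 ZBED3 (r = 0.954), for ACO1 DIAPH2 (r = 0.945) and for FTL LUZP1 (r = 0.936). Among the members themselves STEAP3 and SLC11A2 were the most alike (r = 0.943), followed by STEAP3 and TFRC (r = 0.866), while FTH1 ran against SLC11A2 (r = -0.793). FTL and FTH1, the chains of a single protein shell, had r = 0.486. These values are a description of 10 libraries and carry no test.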

How the data were processed

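Gene-level read counts from HAP1 RNA-seq were analysed. The authors deposited whole-number counts per gene, made with FastQC 0.11.9, HISAT2 2.2.1 on GRCh38.p13 and featureCounts of Rsubread, per the submitters' notes and the study's methods, with no normalization. The strand setting is not given in the sources used here. The untreated WT columns occur in both tables and were used once. Genes were tested with edgeR 4.0.16 in R 4.3.3 (TMM, filterByExpr by group, quasi-likelihood F test, legacy=TRUE, Benjamini-Hochberg adjustment): 8 untreated libraries, 17881 genes, 4 residual degrees of freedom, and 4 WT libraries, 16997 genes, 2 residual degrees of freedom. A DEG had a log2 fold change beyond 1 and an unadjusted P of at most 0.05, two-sided. Total counts were 22225091 to 22674964 per library. Errors are SE from the F statistic.

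Clone numbers pair treated with untreated WT, because the cultures were of the same clone. The difference between clones correlated at r = 0.627 over 18124 genes, so clone was also used as a replicate block. Clone numbers do not pair genotypes. No replicate pair agreed within sampling noise (chi-square per degree of freedom of 22.7 to 71.6).

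The members, lists, library sides and tests were chosen with earlier results of these data known. All members, wider-list genes that met the DEG criterion or an adjusted p of at most 0.05, up to 10 per comparison, and the most alike gene of each member are named, with OGG1 and MUTYH. PPOX and HMOX1 in DKO, BEST1 and STEAP2 were named after their values were seen. Positions, lengths and hairpins came from GENCODE v44 on GRCh38. Alternatives were DESeq2 1.42.0 (size factors, Wald test), edgeR legacy=FALSE, 2 other filters, pseudogene rows added, each library left out, other sets of libraries and the blocks. The fits were tested on simulated data. Intervals cover the spread between libraries.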

Additional observations from a re-analysis of the deposited data

Results flagged for a closer look

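FTL differed in the effect of MUTYH loss with and without OGG1. The interaction was -1.056 on the log2 scale in edgeR (adjusted p = 1, unadjusted threshold passed), among 14 named genes whose interaction was examined. The mean of FTL was 229 CPM in WT, 431 CPM in the MUTYH knockout, 410 CPM in cells without OGG1 and 371 CPM in DKO (n = 2 each). The same test gave 5.497 for ABCG2 (edgeR adjusted p = 1, unadjusted threshold passed), which had 6 and 3 counts in the MUTYH knockout, 2 and 3 in the OGG1 knockout, and 43 and 11 in DKO, against 8 and 33 in WT.

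FTH1 in the 4 clones with intact MUTYH (WT and OGG1 knockout) had 1 library apart from the rest: OGG1 knockout clone 22 at 199 CPM, against 137, 138 and 147 CPM. Its gap was 0.839 of the range. Chance flags about 1 in 20 such groups, and 36 were examined.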

How the results depend on the processing

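Of 1062 fold changes of members under the alternatives, 1009 kept their side of an unadjusted P of 0.05, 30 lost that threshold and 23 gained it. While called, 0 turned direction. Values that passed in neither fit could turn direction and still count among the 1009. For TFRC in the MUTYH knockout, leaving out 1 library gave log2 fold changes from -0.356 to 0.534. Of 118 counts of members meeting the DEG criterion, 11 moved by over 1.5 times, all when 1 library was left out. Leaving out each library in turn gave 0 to 2 members in the MUTYH knockout against WT, 0 to 2 in the OGG1 knockout against WT, 0 to 1 in DKO against WT, 0 to 2 for the interaction and 0 to 1 after H2O2. In the 3 knockouts and after H2O2 the count rose from 0 without WT clone 11. It also rose without MUTYH knockout clone 8 (1 member) and treated clone 2 (1 member). For the interaction it moved from 1 to 2 without WT clone 11, and to 0 without clone 2 of WT, 7 of the MUTYH knockout, 22 of the OGG1 knockout or 14 of DKO. A lone library was assumed to vary like the others, and the cause was not tested. With the longest transcript as length, 3 of 9 members kept their rank.

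The replicate block of clone after H2O2 kept the count of members meeting the DEG criterion at 0 and moved the members at an adjusted p of at most 0.05 from 0 to 2. DESeq2 with this block was added after seeing the data (FTL 0.822, FTH1 0.575). It changed no other member's side of the adjusted threshold. Depth bears most on SLC40A1, which had the fewest counts (42 to 150), but its WT clones 11 and 2 had 108 and 50 counts, and TFRC had a larger SE against WT.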
